A study of Mus musculus with 18 samples.

Results

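The genes described here encode the subunits of the mouse proteasome and the proteins that assemble, activate or inhibit it. They were chosen by name, as all genes in the count table whose symbol begins with Psma to Psmg followed by a number and whose mean count over the 18 libraries was 20 or more. The symbol rule matched 52 of the 30583 genes in the table, and 48 met the minimum. The 4 that did not were Psma8, the testis form of an alpha subunit, with a mean of 14.9 counts, and the processed copies Psmb6-ps, Psmb6-ps2 and Psmb7-ps2, each with a mean under 1 count. The members nearest above the minimum were Psmg3, with a mean of 79.9 counts, and Psmc3ip, with 81.6. The 48 were 7 alpha-ring, 4 structural beta-ring and 3 catalytic beta-ring subunits of the core particle, 3 immunoproteasome subunits, 6 ATPases and 11 non-ATPases of the regulatory particle, 3 chaperones of the regulatory particle, 4 chaperones of the core, 4 activators, 1 inhibitor and 2 genes that share only the form of the symbol. All 48 also passed the filter on low counts, which left 16311 genes for testing.

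RNA was measured by poly(A)-selected sequencing of left-ventricular myocardium from 18 male C57BL/6JR mice aged 12 weeks, with 3 mice in each of 6 groups. In 5 groups the left anterior descending coronary artery was tied to cause a myocardial infarction, and the tissue came from mice killed at 10 min or at 1, 6, 24 or 72 h. In the sham group, labelled 0 h, a suture was placed at the artery without ligation. All mice received sodium pentobarbital for the operation, isoflurane before death and no further treatment named in the labels. The series' design gives 50 mg/kg pentobarbital for all mice, while the labels of the infarct samples climb from 50 to 63 mg/kg, mostly by 1 per sample and in the order of the times, and those of the sham samples give no dose. If those labelled doses were real, dose and time could not be told apart. The sham mice stand for 1 time only, so time since surgery and time since ligation cannot be told apart. The labels name the tissue as myocardium and the cell type as cardiomyocytes, with no step that separates cells.

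The proteasome degrades proteins tagged with ubiquitin. Its core is a barrel of stacked alpha and beta rings with proteolytic sites inside, and the regulatory particle, built from an ATPase ring and a set of ubiquitin receptors, scaffolds and a deubiquitinase, recognises, unfolds and threads substrates into it. Interferon signalling and white blood cells bring in the immunoproteasome, in which Psmb8, Psmb9 and Psmb10 take the places of Psmb5, Psmb6 and Psmb7 and change the peptides made for presentation on MHC class I. In heart muscle the system removes worn sarcomere and membrane proteins, and its subunit genes are known to be transcribed together under the factor encoded by Nfe2l1, which binds antioxidant response elements.

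The stretches around the start sites of 2 inducible subunits and of 2 constitutive ones are shown because these genes moved apart after infarction. Each runs from 250 bases before to 50 bases after the RefSeq start site, on the gene's own strand, in build GRCm38.p6. Capitals mark the letters matched by the motif named with each.
Psmb8, chr17:34197945-34198244, plus strand, STAT site core TTCNNNGAA: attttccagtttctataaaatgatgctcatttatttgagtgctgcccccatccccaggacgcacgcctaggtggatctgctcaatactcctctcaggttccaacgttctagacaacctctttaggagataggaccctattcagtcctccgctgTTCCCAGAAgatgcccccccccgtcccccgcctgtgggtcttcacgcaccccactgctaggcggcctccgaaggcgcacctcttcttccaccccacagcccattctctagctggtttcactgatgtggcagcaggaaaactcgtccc
Psmb9, chr17:34187281-34187580, minus strand, CCAAT box, matched on the other strand: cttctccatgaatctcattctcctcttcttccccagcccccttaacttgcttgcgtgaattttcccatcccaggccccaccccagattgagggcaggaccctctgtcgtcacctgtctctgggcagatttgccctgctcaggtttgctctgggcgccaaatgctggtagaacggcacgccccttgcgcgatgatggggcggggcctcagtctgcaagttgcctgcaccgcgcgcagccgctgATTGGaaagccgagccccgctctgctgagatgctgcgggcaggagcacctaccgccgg
Psmb5, chr14:54617946-54618245, minus strand, antioxidant response element core TGACNNNGC: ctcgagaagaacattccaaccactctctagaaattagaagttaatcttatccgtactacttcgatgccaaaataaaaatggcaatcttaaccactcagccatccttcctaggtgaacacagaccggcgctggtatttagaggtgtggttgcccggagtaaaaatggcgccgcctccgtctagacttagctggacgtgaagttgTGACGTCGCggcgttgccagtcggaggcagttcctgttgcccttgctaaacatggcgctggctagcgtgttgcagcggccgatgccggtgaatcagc
Psmb6, chr11:70525107-70525406, plus strand, antioxidant response element core TGACNNNGC: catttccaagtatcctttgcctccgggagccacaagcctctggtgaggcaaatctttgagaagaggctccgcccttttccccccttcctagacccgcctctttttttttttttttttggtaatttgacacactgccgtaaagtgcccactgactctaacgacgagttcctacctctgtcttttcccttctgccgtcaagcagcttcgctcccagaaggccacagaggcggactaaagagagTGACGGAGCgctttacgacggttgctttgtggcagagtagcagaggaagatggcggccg
The core of an antioxidant response element began 47 bases before the start of Psmb5 and 9 bases before that of Psmb6, and the STAT core began 97 bases before the start of Psmb8. In all, 41 of the 48 genes had an entry, with 44 windows among them. The antioxidant core, searched on both strands, was in 6 of these 44 windows (13.6%) and in 12.4% of all 32817 windows of the same length. Besides Psmb5 and Psmb6, the genes with that core were Psmc6, Psmd9, Psmd12 and Psme4. An interferon response element core, GAAANNGAA, was in 15.9% of the windows of these genes and 8.6% of all windows, and none of the 3 immunoproteasome windows held it. The CCAAT box was in 31.8% against 37.4% and the STAT core in 6.8% against 8.3%, and each of the 4 windows shown held 1 of these motifs only. These matches describe letters in a window and were not tested against the expression changes.

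Library totals ran from 18199172 to 25062351 counts, and transcripts of the mitochondrial genome took 8.41 to 27.38% of them. Expression is given as CPM, the count in every 1000000 counts of the library total, after scaling by TMM, the trimmed mean of M values, which sets the bulk of genes level between libraries. The factors of that scaling were 0.825 to 0.968 up to 6 h, 0.995 to 1.13 at 24 h and 1.36 to 1.43 at 72 h. Scaled to plain library totals instead, the median of all genes lay at a log2 fold change of 0.61 at 72 h, 0.20 at 24 h and -0.12 at 6 h, so the direction of small changes at 24 h and 72 h rests on the scaling. The cell makeup of the tissue moved over the same times. The summed CPM of 8 cardiomyocyte markers was 65550 to 71000 in sham, 28330 to 44790 at 24 h and 17220 to 22400 at 72 h, and all 8 were detected in every group. The sum of 8 leukocyte markers was 68.4 to 85.4 in sham and 109 to 326.7 at 6 h. It was 334 to 754 at 24 h and 1022 to 1112 at 72 h. For 8 macrophage markers the sum was 312 to 365 in sham and 315 to 408 at 6 h. It was 653 to 720 at 24 h and 3611 to 4722 at 72 h. The sum of 6 neutrophil markers was 3.03 to 4.56 in sham, 100.8 to 748 at 6 h, 42.98 to 744 at 24 h and 59.2 to 73.5 at 72 h. From sham to 72 h, 6 fibroblast markers went from 657 to 704 up to 7814 to 10090, and 6 endothelial markers from 1841 to 1922 down to 1064 to 1266. The endothelial sum lay above sham at 6 h, at 2336 to 2818, and below it at 24 h, at 1516 to 1738. The sum of 10 lymphocyte markers was 2.84 to 3.79 in sham and 8.31 to 9.90 at 72 h. No marker of these lists was at 0 in all libraries of a group. In whole tissue, fewer cells of a type and less RNA per cell cannot be told apart, and the part of cell makeup in the changes below was not tested.

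By edgeR no proteasome transcript was called different from sham in the first hour, and changes were called from 6 h on. Of the 17 subunits of the regulatory particle, 2 were called higher at 6 h, Psmd11 and Psmd4, and 9 at 24 h, beside 16.3% and 23.7% of all genes. Psmd11 rose most at both times, and the call of Psmd4 at 6 h was lost with library totals. The immunoproteasome genes Psmb8 and Psmb9 were below sham at 6 h. By 72 h Psmb8 and Psmb9 stood at 2.26-fold and 1.70-fold of sham, and most constitutive subunits were lower than sham relative to the bulk of genes, though not relative to library totals. At 10 min none of the 48 was called (edgeR quasi-likelihood test, adjusted p under 0.05 over all genes tested), where 0.0736% of all genes were, and 4 had an unadjusted p under 0.05. At the same time DESeq2 called 1 of the 48, Psme2, and edgeR without a filter also called 1. At 1 h none was called either, against 0.294% of all genes, and 1 had an unadjusted p under 0.05. At 6 h, 3 of the 48 were higher and 2 lower, below the 16.3% and 12.2% of all genes called in each direction. At 24 h, 15 were higher and 4 lower, a share above the 23.7% of all genes for rises and below the 20.2% for falls. At 72 h, 7 were higher and 25 lower, against 34.2% and 32.2% of all genes. The median log2 fold change of the 48 was -0.09, -0.08, 0.05, 0.14 and -0.20 at the 5 times in order, while that of all genes tested lay between -0.01 and 0.03. In edgeR's joint test of the 5 comparisons with sham, 43 of the 48 had an adjusted p under 0.05, beside 78.4% of all genes. In the 5 comparisons taken singly, 39 of the 48 were called at 1 time or more. The same count over all genes was not made, so whether 39 of 48 is a large share was not tested.

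**Figure D1:**
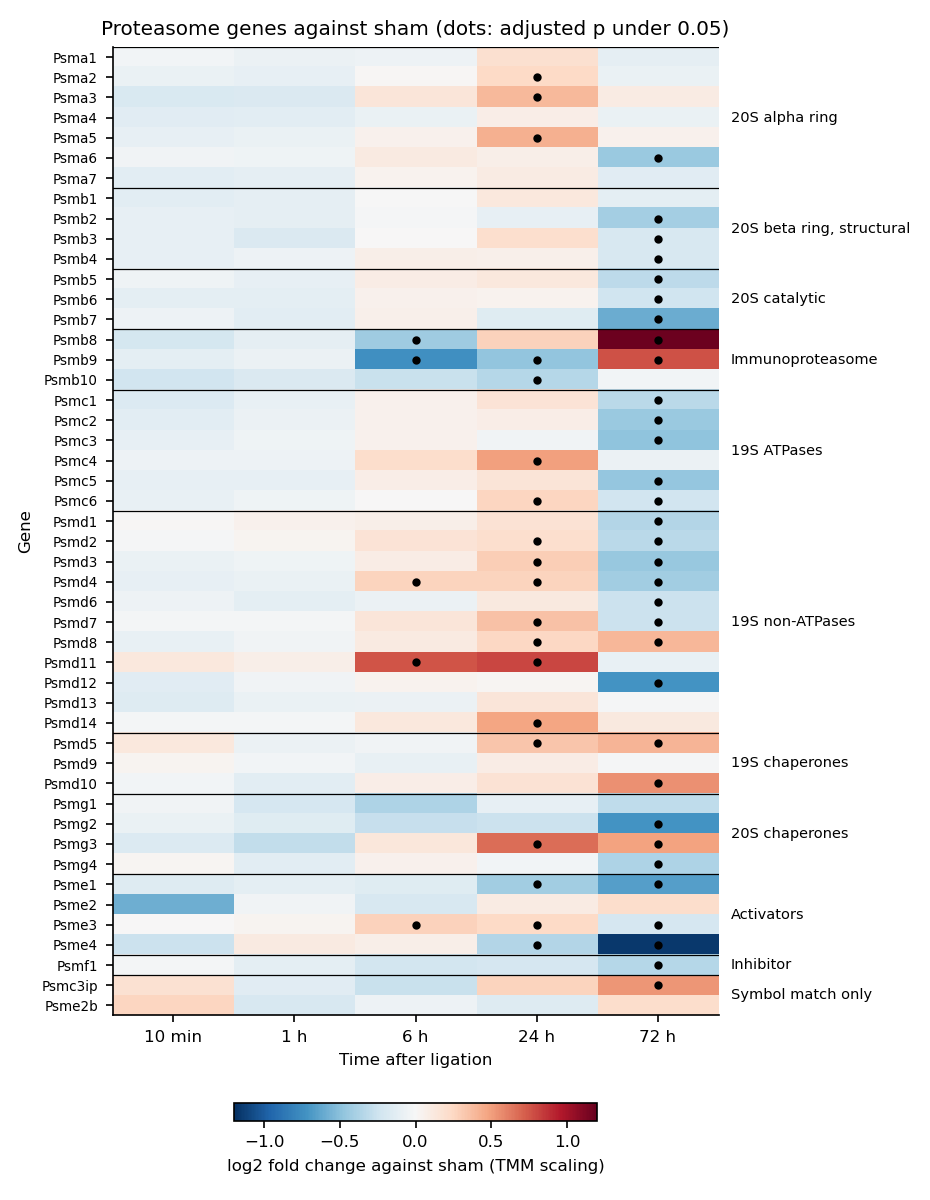
Log2 fold change against sham (colour, TMM scaling) of each of the 48 genes (rows, grouped by role) at each time after ligation (columns), with a dot where edgeR's adjusted p was under 0.05. No dot falls at 10 min or 1 h. Of the 15 rises at 24 h, 9 are among the 17 regulatory subunits and 3 among the 7 alpha subunits, beside 23.7% of all genes. At 72 h Psmb8 and Psmb9 are the 2 highest rows. At that time 25 genes are lower, of which only Psme4 is lower when libraries are scaled to their totals.

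These counts depend on the scaling and, for the smaller ones, on single libraries. With library totals in place of TMM, 34 of the 48 were higher and none lower at 24 h. At 72 h, 32 were higher and 1, Psme4, lower, so that 20 of the genes called at 72 h had the other sign. Of all 16311 genes, the same scaling called 5558 higher and 1805 lower at 24 h, and 9472 higher and 2382 lower at 72 h. At 6 h the 3 rises became 1 without sham replicate 2 or sham replicate 3, and the 2 falls became 1 without any one of the sham replicates. At 24 h the 4 falls became 1 without sham replicate 3 or without replicate 3 of the 24 h group, and 2 without sham replicate 2. The members took 0.372 to 0.385% of all counts in sham, 0.341 to 0.384% at 6 h, 0.447 to 0.488% at 24 h and 0.457 to 0.478% at 72 h.

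Of the immunoproteasome genes, Psmb8 and Psmb9 fell at 6 h and rose at 72 h. Psmb8, which replaces the chymotrypsin-like subunit Psmb5, measured 18.1, 19.2 and 20.6 in sham, 15.9, 15.2 and 18.8 at 10 min, 14.1, 18.9 and 20.7 at 1 h, 16.5, 11.9 and 14.8 at 6 h, 19.9, 22.6 and 27.6 at 24 h, and 44.04, 43.7 and 43.1 at 72 h (CPM). The 3 libraries at 72 h lay above every other library of the series, and those at 6 h lay below every sham library. Psmb8 fell at 6 h by a log2 fold change of -0.43 ± 0.15 (SE), with an adjusted p of 0.0398 by edgeR, and rose at 72 h by 1.18 ± 0.14 (SE), with an adjusted p of 1.04e-06. The fall at 6 h was lost in 5 of 18 fits that left out 1 library. These were sham replicates 1, 2 and 3 and replicates 2 and 3 of the 6 h group. At 24 h the value was 0.27 ± 0.15 (SE) with an adjusted p of 0.137 by edgeR, and the groups overlapped. With library totals Psmb8 was called higher at 24 h, at 0.47 with an adjusted p of 0.0165 by edgeR. Psmb9, which replaces the caspase-like subunit Psmb6, measured 14.8, 16.5 and 15.3 in sham, 12.4, 13.4 and 17.1 at 10 min, 11.5, 15.04 and 17.7 at 1 h, 9.95, 7.61 and 10.4 at 6 h, 10.7, 13.5 and 9.28 at 24 h, and 28.7, 23.9 and 26.6 at 72 h CPM. Its libraries at 6 h and at 24 h lay below all sham libraries, and its 72 h libraries above them. Its log2 fold change was -0.74 ± 0.17 (SE) at 6 h and -0.47 ± 0.17 (SE) at 24 h, with adjusted p of 0.00391 and 0.0295 by edgeR. At 72 h it had risen by 0.77 ± 0.16 (SE), with an adjusted p of 0.000456 by edgeR. Its fall at 24 h was not called without sham replicate 2 or 3 or without replicate 1 or 3 of the 24 h group, nor with library totals (log2 fold change -0.27, adjusted p 0.228 by edgeR). Psmb10, which replaces the trypsin-like subunit Psmb7, measured 63.95, 62.1 and 69.7 in sham, 54.7, 57.4 and 55.2 at 10 min, 55.6, 56.2 and 62.3 at 1 h, 46.8, 54.6 and 61.4 at 6 h, 51.1, 59.3 and 43.8 at 24 h, and 66.7, 58.1 and 66.8 at 72 h CPM. Its libraries at 6 h and 24 h lay below all sham libraries, and those at 72 h overlapped sham. Psmb10 fell at 24 h, with a log2 fold change of -0.34 ± 0.11 (SE) and an adjusted p of 0.0178 by edgeR, while 72 h gave -0.03 ± 0.11 (SE) with an adjusted p of 0.817. Scaled to library totals, Psmb10 at 72 h was called higher, at 0.55, and its value at 24 h, -0.14, was not called. The call at 24 h was also lost without sham replicate 3 or 24 h replicate 3.

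All 3 constitutive partners were lower than sham at 72 h. Psmb5, the chymotrypsin-like site, measured 105, 106 and 105 in sham, 104, 105 and 94.1 at 10 min, 95.4, 96.6 and 103 at 1 h, 102, 111 and 124 at 6 h, 114, 118 and 112 at 24 h, and 86.1, 82.3 and 85.4 at 72 h CPM. Psmb6, the caspase-like site, measured 153, 146 and 144 in sham, 142, 137 and 130.0 at 10 min, 125, 138 and 144 at 1 h, 145, 145 and 169 at 6 h, 147, 159 and 149.5 at 24 h, and 128, 123 and 125 at 72 h CPM. Psmb7, the trypsin-like site, measured 133, 137 and 128 in sham, 129, 131 and 122 at 10 min, 118, 124 and 122 at 1 h, 139, 143 and 132 at 6 h, 136, 112 and 113 at 24 h, and 86.1, 96.97 and 81.01 at 72 h CPM. For all 3 genes every library at 72 h lay below every sham library, and none was called at an earlier time. The log2 fold changes at 72 h were -0.32 ± 0.08 (SE), -0.24 ± 0.08 (SE) and -0.59 ± 0.09 (SE), with adjusted p of 0.00213, 0.0177 and 1.13e-05 by edgeR. The call for Psmb6 was lost without sham replicate 1 or 72 h replicate 2. With library totals the same 3 differences were 0.27, 0.35 and -0.004, so the direction for Psmb5 and Psmb6 rests on the scaling and Psmb7 lay close to 0.

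**Figure D2:**
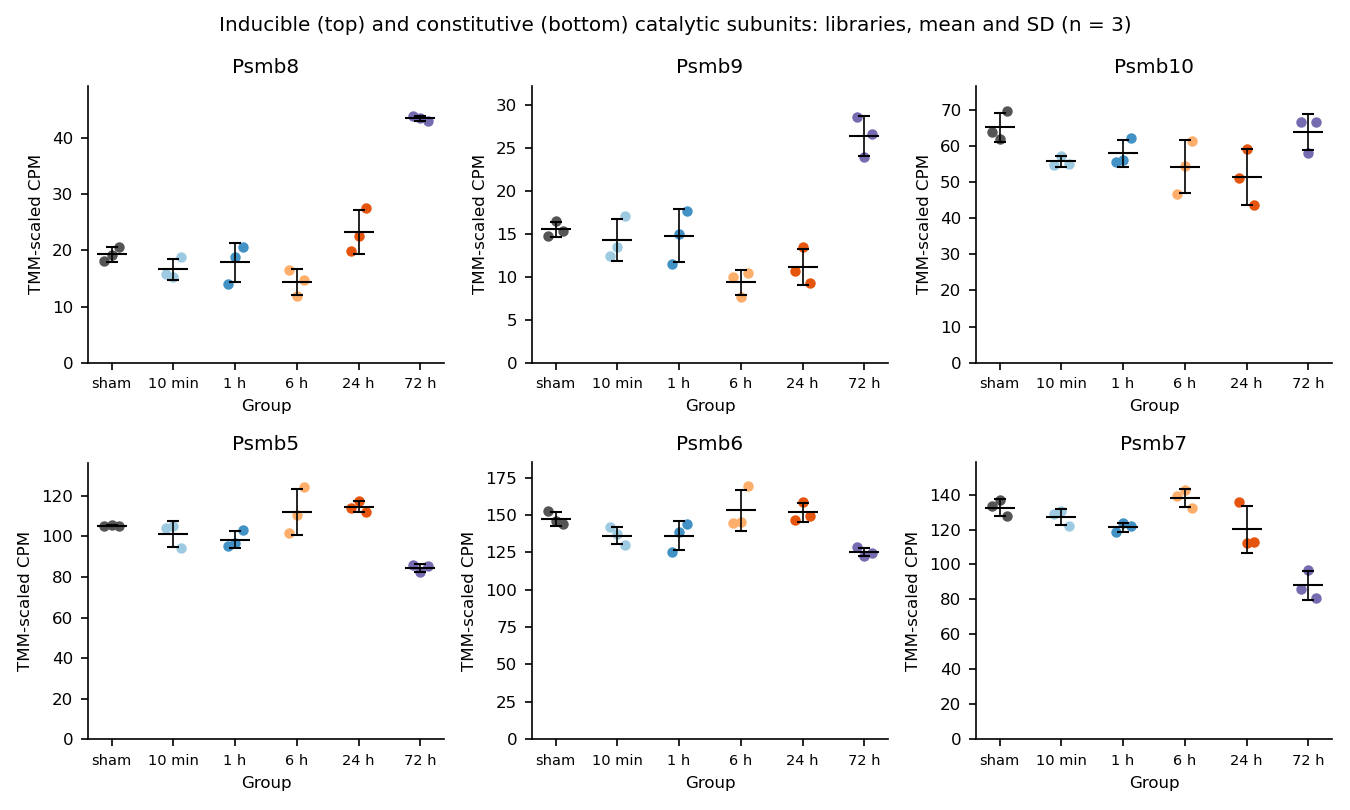
TMM-scaled CPM (vertical axes, from 0) of the 3 inducible catalytic subunits (top row) and the 3 constitutive ones they replace (bottom row) in the 6 groups, with 1 point per library and the mean and SD over 3 libraries. Psmb8 reaches 43.1 to 44.0 CPM and Psmb9 23.9 to 28.7 at 72 h, above all other libraries, while Psmb5, Psmb6 and Psmb7 at 72 h lie below all their sham libraries.

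The balance between the 2 sets within a library does not depend on the scaling. The share of Psmb8, Psmb9 and Psmb10 in the transcripts of all 6 catalytic genes, as counts per length, was 16.6, 16.7 and 18.3% in sham, 15.0, 15.6 and 17.1% at 10 min, 16.2, 16.6 and 17.5% at 1 h, 13.4, 13.5 and 14.01% at 6 h, 13.9, 15.6 and 13.7% at 24 h, and 24.7, 23.1 and 24.8% at 72 h. All libraries at 6 h and 24 h lay below sham and all at 72 h above it. The mean moved by -3.58, -2.81 and 6.99 percentage points from the sham mean of 17.2% ± 0.954 (SD, n = 3). Each of these 3 differences had a 2-sided exact permutation p of 0.1, the smallest that 3 libraries against 3 allow. Psmb10 makes up most of this share, and pair by pair the sizes differed. In counts per length, the ratio of Psmb8 to Psmb5 was 0.0583 in sham, 0.0412 at 6 h, 0.0650 at 24 h and 0.164 at 72 h. For Psmb9 per Psmb6 the same 4 groups had 0.0539, 0.0312, 0.0375 and 0.108. For Psmb10 per Psmb7 they had 0.990, 0.791, 0.865 and 1.47. The ranges of all 3 ratios at 72 h lay above those in sham. At 24 h the ratio of Psmb8 to Psmb5, 0.0556 to 0.0783, overlapped the sham range of 0.0545 to 0.0625, with an exact permutation p of 0.6.

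**Figure D3:**
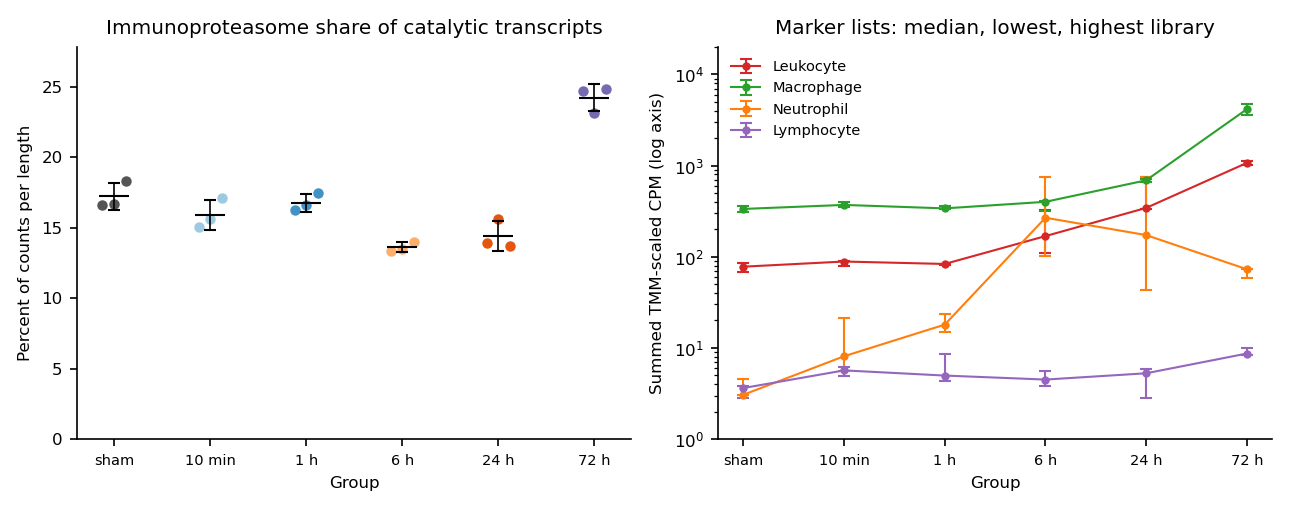
Left, the share of the 3 immunoproteasome genes in the counts per length of the 6 catalytic genes (percent, 1 point per library, mean and SD of 3). Right, the summed TMM-scaled CPM of 4 lists of white blood cell markers on a log axis, as the median with the lowest and highest library. The share is lowest at 6 h, 13.4 to 14.01%, when leukocyte markers are already at 109 to 326.7 CPM, and highest at 72 h.

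Other genes of interferon signalling and peptide loading were counted beside these, with markers of white blood cells. Of 14 interferon and peptide-loading genes tested, 2 were called higher and 6 lower at 6 h, and 2 higher and 4 lower at 24 h. At 72 h, 11 were called higher and 1 lower, with a median log2 fold change of 0.84. Of all genes, 16.3% were higher and 12.2% lower at 6 h, 23.7% and 20.2% at 24 h, and 34.2% and 32.2% at 72 h. Tap1, a subunit of the peptide transporter whose gene lies head to head with Psmb9, measured 14.7, 16.5 and 15.9 in sham, 15.5, 13.4 and 18.9 at 10 min, 10.8, 15.9 and 17.7 at 1 h, 17.2, 9.14 and 16.6 at 6 h, 14.7, 16.98 and 24.2 at 24 h, and 39.97, 39.1 and 38.1 at 72 h CPM. It was at -0.14 ± 0.23 (SE) at 6 h, with an adjusted p of 0.698 by edgeR, and rose by 1.31 ± 0.22 (SE) at 72 h, with an adjusted p of 6.21e-05. Tap1 and Psmb9 share 212 exonic bases on opposite strands, 5.8% of the exons of Psmb9, and how reads were counted by strand is not given in the sources used here. Annotated genes on the other strand cover 14.7% of the exonic bases of Psmb8 and 11.8% of those of Psmb7. A microRNA gene on the same strand covers 12.1% of those of Psmb5. The counts of these genes, and the ratios built on them, are less certain for that reason. Irf8, a transcription factor of myeloid cells, had the highest value of the list at 72 h, a log2 fold change of 2.92, and was also called higher at 6 h, at 1.42. Tap2, the other transporter subunit, was the gene called lower at 72 h, at -0.34. All 8 leukocyte markers were higher than sham at 24 h and 7 of 8 at 6 h, with medians of 2.86 and 1.48 on the log2 scale, at times when Psmb9 was below sham. Of 8 macrophage markers, 3 were called higher and 1 lower at 6 h, and 7 higher at 24 h. At 72 h the 8 leukocyte markers had a median of 3.89, and Psmb8 and Psmb9 were at 1.18 and 0.77. The part of these cells in the changes of Psmb8 and Psmb9 was not tested.

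Among the 11 other core subunits, 3 rose at 24 h and 4 fell at 72 h, shares near the 23.7% and 32.2% of all genes. In the alpha ring, whose subunits gate the entrance to the barrel, Psma2, Psma3 and Psma5 rose at 24 h, Psma2 not without sham replicate 2 or 3 or 24 h replicate 3. None of the 4 structural beta subunits was called then, and whether the 2 rings differ was not tested. Psma3 measured 75.7, 75.4 and 72.1 in sham, 68.7, 64.6 and 62.99 at 10 min, 68.4, 64.4 and 65.6 at 1 h, 78.6, 82.8 and 85.0 at 6 h, 94.4, 94.8 and 104 at 24 h, and 77.95, 84.9 and 75.99 at 72 h CPM. Its libraries at 24 h lay above all sham libraries. It rose by 0.39 ± 0.07 (SE) on the log2 scale, with an adjusted p of 0.000491 by edgeR, and was at 0.10 ± 0.07 (SE) at 72 h, the highest of the ring, with an adjusted p of 0.26. Psma6 measured 151, 156 and 144 in sham, 146, 148 and 144 at 10 min, 140.4, 153 and 143 at 1 h, 169, 154 and 162 at 6 h, 169, 148 and 154 at 24 h, and 111, 116 and 103 at 72 h CPM. It was the only alpha subunit called at 72 h, with a log2 fold change of -0.45 ± 0.08 (SE) and an adjusted p of 6.53e-05 by edgeR, and its 72 h libraries did not overlap sham. The 7 alpha subunits lay between -0.45 and 0.10 at 72 h, with a median of -0.08.

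The structural beta subunits, which hold the ring together without a proteolytic site, were lower at 72 h in 3 of 4 cases. Psmb2 measured 69.2, 60.5 and 60.99 in sham, 63.3, 59.5 and 54.7 at 10 min, 55.9, 60.5 and 60.3 at 1 h, 58.5, 65.4 and 64.4 at 6 h, 61.8, 59.9 and 56.2 at 24 h, and 49.05, 46.9 and 47.9 at 72 h CPM, and fell most of the 4, by a log2 fold change of -0.41 ± 0.08 (SE) with an adjusted p of 0.000271 by edgeR. Psmb4 measured 155, 148 and 148 in sham, 147, 139.5 and 133 at 10 min, 136, 144 and 151 at 1 h, 152, 151 and 167 at 6 h, 158, 155 and 156 at 24 h, and 129.5, 134 and 131 at 72 h CPM, with -0.19 ± 0.07 (SE) at 72 h and an adjusted p of 0.0326 by edgeR, a call lost without sham replicate 1 or 3 or 72 h replicate 1 or 3. Psmb1 measured 109.8, 106 and 103 in sham, 99.4, 96.3 and 96.4 at 10 min, 91.8, 101 and 103 at 1 h, 99.7, 102 and 115 at 6 h, 120.5, 118 and 109 at 24 h, and 98.5, 98.7 and 96.4 at 72 h CPM. It was not called at 72 h, at -0.12 ± 0.08 (SE) and an adjusted p of 0.189 by edgeR, although its 72 h libraries also lay below sham. Of all 14 constitutive core subunits, none was higher and 7 were lower at 72 h, with a median of -0.16. With library totals none was lower and 11 were higher, beside 9472 of all 16311 genes called higher and 2382 lower. Their changes stayed close together early on: the SD over the 14 log2 fold changes was 0.04 at 10 min and at 1 h, 0.06 at 6 h, 0.16 at 24 h and 0.19 at 72 h. In sham libraries the 14 ranged from 19.1 CPM per kilobase of gene length for Psma3 to 121.7 for Psma6. For 41 of the 48 genes the length used is that of all annotated exons joined. Levels by length therefore depend on the annotated exons and are not numbers of transcripts.

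The regulatory particle held 9 of the 15 genes that rose at 24 h. Of its 17 subunits, 2 were called higher at 6 h and 9 at 24 h with none lower, and at 72 h 1 was higher and 12 were lower, beside 16.3%, 23.7%, 34.2% and 32.2% of all genes. Psmd11, a lid subunit that clamps the regulatory particle to the core, measured 61.1, 61.6 and 61.2 in sham, 61.9, 73.4 and 64.8 at 10 min, 63.6, 65.7 and 63.9 at 1 h, 117, 94.8 and 98.4 at 6 h, 104, 94.5 and 123 at 24 h, and 54.3, 62.1 and 56.1 at 72 h CPM. All libraries at 6 h and 24 h lay above all others, and those at 72 h overlapped sham. Psmd11 rose by 0.76 ± 0.10 (SE) at 6 h and 0.81 ± 0.10 (SE) at 24 h, 1.69-fold and 1.75-fold, with adjusted p of 5.43e-05 and 1.52e-05 by edgeR. Both calls were kept in all 28 settings tried, library totals included. Its value at 72 h was -0.09 ± 0.10 (SE), with an adjusted p of 0.446 by edgeR. Psmd4, a ubiquitin receptor, measured 102, 92.9 and 89.7 in sham, 88.4, 89.9 and 87.2 at 10 min, 86.3, 91.7 and 91.4 at 1 h, 106, 104 and 131 at 6 h, 114, 107 and 122 at 24 h, and 73.1, 69.8 and 69.9 at 72 h CPM. It rose by 0.27 ± 0.09 (SE) at 6 h and 0.27 ± 0.09 (SE) at 24 h and fell at 72 h with -0.42 ± 0.09 (SE), with adjusted p of 0.0344, 0.0218 and 0.000462 by edgeR. Neither rise was called without sham replicate 2 or 3, nor without replicate 3 of its own group. With library totals Psmd4 was at 0.16 at 6 h, 0.46 at 24 h and 0.17 at 72 h, with adjusted p of 0.229, 0.000732 and 0.124 by edgeR, so the rise at 6 h and the fall at 72 h were not called and the sign at 72 h turned. Psmd14, the deubiquitinase of the lid, rose at 24 h with 0.48 ± 0.11 (SE) and an adjusted p of 0.00168 by edgeR.

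The lid subunits Psmd12 and Psmd8 went opposite ways at 72 h. Psmd12 measured 106, 111 and 107 in sham, 99.8, 100.5 and 94.7 at 10 min, 106, 106 and 103 at 1 h, 107, 107 and 119 at 6 h, 116, 103 and 111 at 24 h, and 65.3, 67.99 and 64.1 at 72 h CPM, with the 3 libraries at 72 h below all others. Its log2 fold change at 72 h was -0.71 ± 0.07 (SE), the lowest of the regulatory particle, with an adjusted p of 1.34e-07 by edgeR. Psmd8 measured 85.8, 81.8 and 86.2 in sham, 83.0, 79.7 and 75.5 at 10 min, 82.1, 79.6 and 84.1 at 1 h, 88.3, 91.8 and 93.8 at 6 h, 95.3, 95.9 and 111 at 24 h, and 112, 109 and 112 at 72 h CPM. It was the 1 subunit of the particle called higher at 72 h, at 0.40 ± 0.08 (SE) with an adjusted p of 0.000166 by edgeR. It was higher at 24 h too, at 0.25 ± 0.08 (SE) with an adjusted p of 0.0127 by edgeR, but not without sham replicate 2 or 24 h replicate 3. Scaled to library totals, Psmd12 was at -0.13 with an adjusted p of 0.165, and Psmd8 at 0.98. Among the 6 ATPases, the ring that unfolds substrates, Psmc4 measured 70.2, 64.8 and 68.4 in sham, 71.5, 66.01 and 57.9 at 10 min, 65.1, 62.95 and 66.5 at 1 h, 75.2, 75.8 and 84.8 at 6 h, 87.01, 96.7 and 102 at 24 h, and 62.1, 67.6 and 63.6 at 72 h CPM. Its 24 h libraries lay above all sham libraries, and it rose by 0.49 ± 0.09 (SE), with an adjusted p of 0.000315 by edgeR. The same test by edgeR at 6 h gave 0.21 ± 0.09 (SE) with an adjusted p of 0.0809, and at 72 h -0.07 ± 0.09 (SE) with 0.484. Psmc3 measured 198, 203 and 197 in sham, 181, 189 and 189 at 10 min, 190.4, 189 and 199 at 1 h, 202, 191 and 227 at 6 h, 200.1, 194 and 186 at 24 h, and 143, 144 and 141 at 72 h CPM. Its 3 libraries at 72 h lay below all others, with -0.48 ± 0.08 (SE) and an adjusted p of 2.55e-05 by edgeR. Counts per length were averaged as a geometric mean over the 17 regulatory subunits and over the 14 constitutive core subunits. The ratio of the first mean to the second was 0.635 to 0.644 in sham and lay wholly above that range at 4 times. At 10 min it was 0.646 to 0.658 and at 1 h 0.651 to 0.684. At 6 h it was 0.664 to 0.698 and at 24 h 0.675 to 0.719. At 72 h it lay wholly below the sham range, at 0.604 to 0.621. Each of the 5 differences from sham had the smallest exact permutation p of 0.1.

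**Figure D4:**
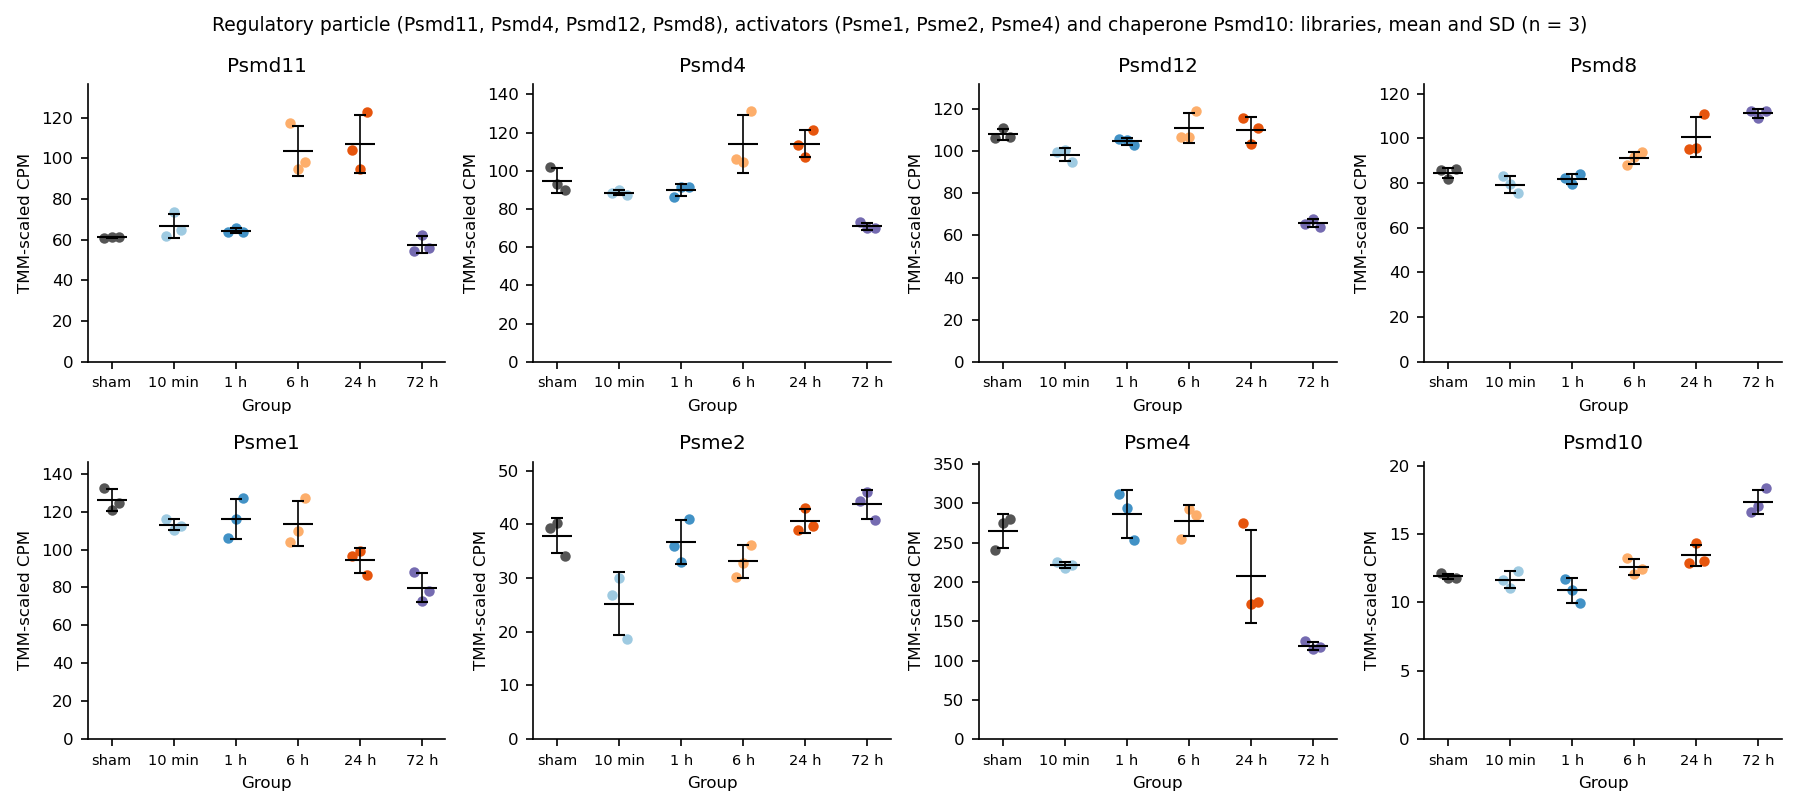
TMM-scaled CPM (vertical axes, from 0) of 4 regulatory particle subunits, 3 activators and 1 chaperone in the 6 groups, with 1 point per library and the mean and SD of 3. Psmd11 is high only in the 6 h and 24 h libraries, Psmd12, Psme1 and Psme4 have their lowest means at 72 h, and Psmd10 its highest; with library totals Psmd12 and Psme1 at 72 h do not differ from sham by the test.

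The chaperones that build the particle did not move as 1 group. Psmd5, Psmd9 and Psmd10 each hold ATPases during assembly of the base. Psmd5 measured 20.3, 20.3 and 21.5 in sham, 21.4, 23.01 and 23.2 at 10 min, 20.6, 19.7 and 18.8 at 1 h, 19.4, 21.5 and 19.4 at 6 h, 26.1, 23.7 and 28.7 at 24 h, and 25.8, 30.6 and 26.2 at 72 h CPM. It rose by 0.34 ± 0.10 (SE) at 24 h and 0.41 ± 0.09 (SE) at 72 h, with adjusted p of 0.00811 and 0.000823 by edgeR, and in both groups its libraries lay above sham. Psmd10, also called gankyrin, measured 12.1, 11.8 and 11.8 in sham, 11.6, 11.04 and 12.3 at 10 min, 11.7, 10.9 and 9.97 at 1 h, 13.2, 12.1 and 12.5 at 6 h, 12.9, 14.3 and 13.1 at 24 h, and 16.6, 17.1 and 18.4 at 72 h CPM. Its 72 h libraries lay above all others, with 0.54 ± 0.10 (SE) and an adjusted p of 6.34e-05 by edgeR. Psmd9 measured 23.8, 21.9 and 21.8 in sham, 22.9, 24.1 and 21.9 at 10 min, 19.9, 23.7 and 22.5 at 1 h, 19.8, 20.8 and 22.9 at 6 h, 23.5, 25.1 and 22.9 at 24 h, and 20.8, 23.2 and 22.9 at 72 h CPM. Psmd9 was called at no time, and its values at 24 h and 72 h were 0.09 ± 0.09 (SE) and -0.01 ± 0.09 (SE); an annotated noncoding gene on the other strand covers 25.5% of its exons.

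The core chaperones work as the pairs Psmg1 with Psmg2 and Psmg3 with Psmg4, which guide the alpha ring together. Psmg1 measured 21.99, 20.5 and 20.3 in sham, 19.9, 21.7 and 19.3 at 10 min, 17.0, 19.2 and 18.6 at 1 h, 11.2, 19.9 and 17.4 at 6 h, 18.99, 20.3 and 19.2 at 24 h, and 16.2, 18.2 and 16.4 at 72 h CPM. Psmg2 measured 28.2, 25.9 and 24.6 in sham, 25.6, 23.9 and 25.1 at 10 min, 23.3, 23.1 and 24.8 at 1 h, 17.5, 24.02 and 23.1 at 6 h, 24.0, 24.3 and 17.2 at 24 h, and 17.3, 16.4 and 14.3 at 72 h CPM. Psmg2 fell at 72 h, with -0.71 ± 0.13 (SE) and an adjusted p of 0.000101 by edgeR, and Psmg1 was at -0.31 ± 0.14 (SE) with 0.062. In replicate 1 of the 6 h group both were at their lowest of that group, 11.2 and 17.5 CPM. Psmg3 measured 3.03, 3.37 and 2.84 in sham, 3.17, 2.44 and 2.68 at 10 min, 2.27, 2.90 and 2.39 at 1 h, 3.22, 3.25 and 3.67 at 6 h, 4.14, 5.91 and 4.64 at 24 h, and 4.83, 3.41 and 4.65 at 72 h CPM, the lowest level per length of the 48 genes in sham. Psmg4 measured 13.1, 14.3 and 11.4 in sham, 13.3, 13.1 and 12.96 at 10 min, 10.7, 11.2 and 13.8 at 1 h, 14.9, 12.5 and 12.7 at 6 h, 12.5, 14.2 and 11.2 at 24 h, and 10.2, 9.35 and 10.4 at 72 h CPM. Within this pair Psmg3 rose by 0.67 ± 0.19 (SE) at 24 h and 0.48 ± 0.19 (SE) at 72 h, with adjusted p of 0.00809 and 0.0322 by edgeR, and Psmg4 fell at 72 h with -0.37 ± 0.12 (SE) and an adjusted p of 0.013. Psmg3 shares 9.7% of its exonic bases with another gene on the same strand, so its counts are less certain. Over all 7 chaperones, 2 rose at 24 h, and 3 rose and 2 fell at 72 h, beside the 23.7%, 34.2% and 32.2% of all genes. Calls lost without 1 library were Psmd5 at 24 h (24 h replicate 3), Psmg3 at 24 h (24 h replicate 2) and at 72 h (sham replicate 1 or 3, 72 h replicate 1 or 3), and Psmg4 at 72 h (sham replicate 2, 72 h replicate 2).

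The 4 activators, which cap the core in place of the regulatory particle, differed in the times at which they were called. Psme1 and Psme2 encode the 2 subunits of the interferon-inducible activator PA28. Psme1 measured 132, 121 and 125 in sham, 116, 111 and 112 at 10 min, 106, 116 and 127 at 1 h, 104, 109.7 and 127 at 6 h, 96.7, 99.2 and 86.8 at 24 h, and 88.01, 73.1 and 78.4 at 72 h CPM. Its libraries at 24 h and 72 h lay below all sham libraries. Psme1 fell at 24 h with -0.42 ± 0.10 (SE) and at 72 h with -0.66 ± 0.10 (SE), with adjusted p of 0.00215 and 8.93e-06 by edgeR. With library totals neither fall was called. The values were then -0.22 at 24 h and -0.07 at 72 h, with adjusted p of 0.0906 and 0.537 by edgeR. Psme2 measured 39.4, 40.2 and 34.1 in sham, 26.8, 30.1 and 18.7 at 10 min, 36.03, 33.1 and 41.05 at 1 h, 30.2, 32.9 and 36.2 at 6 h, 38.97, 43.1 and 39.7 at 24 h, and 44.4, 46.1 and 40.8 at 72 h CPM. At 72 h its libraries lay above sham but the difference, 0.21 ± 0.13 (SE), was not called, with an adjusted p of 0.176 by edgeR. The ratio of Psme1 to Psme2 in counts per length was 2.40 to 2.92 in sham and 2.935 to 4.801 at 10 min. It was 1.746 to 1.982 at 24 h and 1.265 to 1.585 at 72 h. The 10 min range lay above sham and the other two below it, and each difference had the smallest exact permutation p of 0.1. The ranges at 1 h and 6 h overlapped sham. At 10 min Psme2 was below sham in all 3 libraries, at -0.59 ± 0.14 (SE), with an adjusted p of 0.188 by edgeR and 0.0253 by DESeq2. Psme2b, a processed copy of Psme2 on another chromosome, can take its reads, and Psme2 made up 52.5 to 66.0% of the sum of both in sham and 32.0 to 53.7% at 10 min. That sum was 59.7 to 67.8 CPM in sham and 55.7 to 58.5 at 10 min.

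Psme3 and Psme4 encode the activators of the nucleus, PA28-gamma and PA200. Psme3 measured 64.6, 58.5 and 57.97 in sham, 62.9, 61.6 and 57.5 at 10 min, 64.04, 63.7 and 58.01 at 1 h, 81.7, 71.3 and 66.1 at 6 h, 71.6, 66.96 and 75.8 at 24 h, and 51.2, 55.5 and 50.4 at 72 h CPM. It rose by 0.28 ± 0.09 (SE) at 6 h and 0.24 ± 0.09 (SE) at 24 h and was at -0.20 ± 0.09 (SE) at 72 h, with adjusted p of 0.0279, 0.0342 and 0.0499 by edgeR. The last call was lost in 10 of 18 fits that left out 1 library, sham replicates 1, 2 and 3 and 72 h replicates 1 and 3 among them, and the rises were lost without sham replicate 2 or 3, 6 h replicate 1 or 24 h replicate 3 for the time concerned. Psme4 measured 240.5, 275 and 280.1 in sham, 226, 217 and 221 at 10 min, 312, 295 and 253 at 1 h, 255, 293 and 285 at 6 h, 275, 172 and 174 at 24 h, and 125, 114 and 117 at 72 h CPM. Its 72 h libraries were the 3 lowest of the series, and in the 24 h group replicate 1, at 275 CPM, lay within the sham range while the other two lay below it. Psme4 fell at 72 h by a log2 fold change of -1.16 ± 0.14 (SE), 2.24-fold, with an adjusted p of 1.05e-06 by edgeR. It was lower with library totals too, at -0.58 with an adjusted p of 0.000617 by edgeR. The call at 24 h, -0.36 ± 0.14 (SE) with an adjusted p of 0.049 by edgeR, was lost in 15 of 18 fits with 1 library left out, among them sham replicates 2 and 3 and 24 h replicates 2 and 3. Set against the geometric mean of the 14 core subunits, in counts per length, Psme4 was 0.551 to 0.675 in sham. At 72 h that ratio was 0.300 to 0.335. Psmf1, which encodes the inhibitor PI31, measured 20.2, 17.8 and 16.2 in sham, 17.1, 18.7 and 17.5 at 10 min, 15.3, 17.5 and 17.1 at 1 h, 14.2, 16.1 and 16.1 at 6 h, 14.8, 16.5 and 15.9 at 24 h, and 14.01, 14.3 and 14.4 at 72 h CPM. It fell at 72 h, with -0.34 ± 0.10 (SE) and an adjusted p of 0.00562 by edgeR.

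Of the genes that share only the form of the symbol, Psmc3ip encodes a partner of meiotic recombinases and not a proteasome part. It rose at 72 h, with 0.53 ± 0.18 (SE) and an adjusted p of 0.0154 by edgeR, but 21.2% of its exonic bases lie under a gene on the other strand, and the call was lost without sham replicate 2 or 3 or 72 h replicate 2. Psme2b was called at no time, with 0.21 ± 0.16 (SE) at 72 h.

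Because direction at 72 h rests on the scaling, the genes outside the core were also set against the 14 constitutive core subunits, a scaling chosen after the first values were seen. On that scale, 12 of the 34 others were higher and 9 lower at 72 h, against 42.2% and 24.4% of all genes. Psmb8 was at 1.39 and Psmb9 at 0.98, with adjusted p of 1.89e-07 and 3.76e-05 by edgeR, and Psmb10 at 0.18 was not called, with 0.149. Psme2 was higher relative to the core, at 0.42 with an adjusted p of 0.00565 by edgeR. Also higher were Psmd10 at 0.76, Psmg3 at 0.69, Psmd5 at 0.62 and Psmd8 at 0.61. Psme4 at -0.95, Psmd12 at -0.50, Psmg2 at -0.50 and Psme1 at -0.45 were lower than the core. At 6 h all 3 immunoproteasome genes were lower relative to the core, Psmb8 at -0.47, Psmb9 at -0.78 and Psmb10 at -0.31, the last with an adjusted p of 0.0443 by edgeR.

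**Figure D5:**
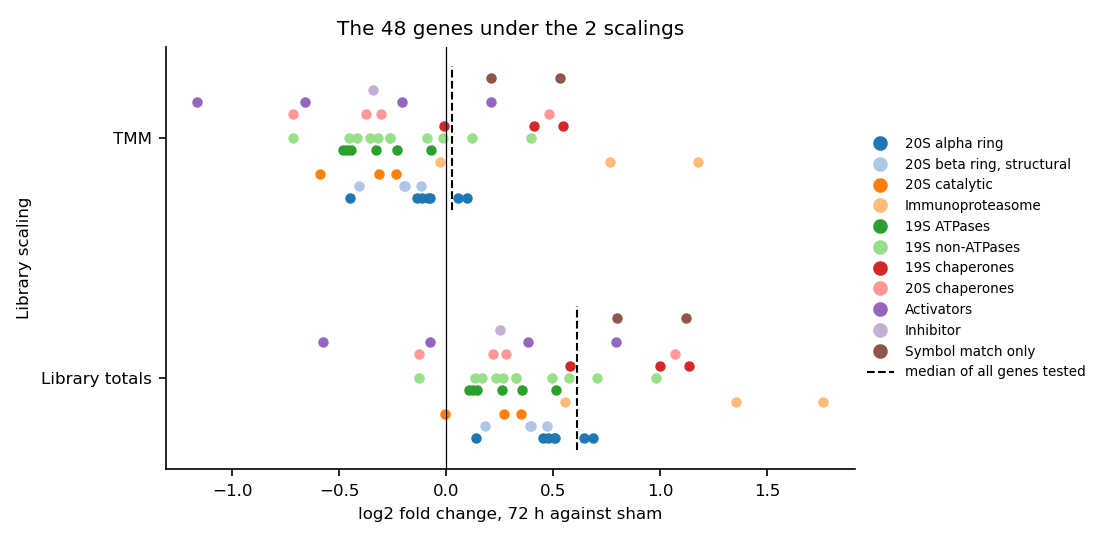
Log2 fold change at 72 h against sham (horizontal axis) of the 48 genes under TMM scaling (upper row) and under scaling to library totals (lower row), coloured by role and spread vertically for legibility, with a dashed line at the median of all genes tested. The median moves from 0.03 to 0.61, 25 genes are called lower in the upper row and 1, Psme4, in the lower, and Psmb8 and Psmb9 lie highest in both.

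Of the successive times, 24 h and 72 h had the most calls between them with TMM scaling. These contrasts leave out the sham means, though the fit behind them used all libraries. By edgeR none of the 48 was called between 10 min and 1 h, where 0.307% of all genes were and 3 of the 48 had an unadjusted p under 0.05. DESeq2, edgeR without a filter and a fit of those 2 groups alone each called 1 there. Between 1 h and 6 h, 4 rose, Psma3, Psmc4, Psmd4 and Psmd11, and 1 fell, Psmb9, against 24.5% of all genes called, and 3 in all were called without replicate 3 of the 1 h group. Between 6 h and 24 h, 13 rose and 2 fell, against 14.2% and 13.7% of all genes. That count was 5 without replicate 1 of the 6 h group or replicate 3 of the 24 h group, 7 without replicate 2 of either, 9 without replicate 3 of the 6 h group, and 0 in a fit of those 2 groups alone. Between 24 h and 72 h, 4 rose and 33 fell, against 24.4% and 26.1% of all genes. The rises were Psmb8, Psmb9, Psmb10 and Psmd10, at 0.90, 1.24, 0.31 and 0.37. The falls took in 13 of 14 core and 15 of 17 regulatory subunits, led by Psmd11 at -0.90 and Psme4 at -0.81. With library totals 19 of the 48 were called over this step in place of 37, beside 7285 of all 16311 genes called higher and 1651 lower. With that scaling, and on FPKM, the step from 6 h to 24 h had more calls than this one, so which step had the most rests on the scaling. The comparisons of 6 h, 24 h and 72 h with sham share the sham libraries, and the successive comparisons share the group in between.

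The genes that control or work with the proteasome were counted from 4 lists. Of 17 other proteasome cofactors tested, such as the substrate shuttles and the deubiquitinase Usp14, 4 were higher and none lower at 6 h. At 24 h, 5 were higher and 1 lower, and at 72 h 1 was higher and 9 lower, with a median of -0.23. Of all genes, 16.3% were higher and 12.2% lower at 6 h, 23.7% and 20.2% at 24 h, and 34.2% and 32.2% at 72 h. Ecpas, a scaffold that ties the core to the regulatory particle, was lowest at 72 h, at -0.94 ± 0.08 (SE) with an adjusted p of 2.1e-08 by edgeR, and Zfand2a, a stress-induced proteasome binder, was the gene called higher, at 0.38 ± 0.15 (SE). Of 8 genes of transcriptional control, 2 were higher and 1 lower at 6 h, 1 and 2 at 24 h, and 2 and 3 at 72 h, beside 16.3%, 12.2%, 23.7%, 20.2%, 34.2% and 32.2% of all genes in the same order. Nfe2l1 measured 578, 629.9 and 582 in sham, 589, 688 and 653 at 10 min, 613, 639.5 and 597 at 1 h, 585, 604 and 584 at 6 h, 627, 483 and 528 at 24 h, and 355, 313 and 292 at 72 h CPM. The 3 libraries at 72 h were its lowest, with a log2 fold change of -0.90 ± 0.11 (SE) and an adjusted p of 6.6e-07 by edgeR, and 24 h gave -0.13 ± 0.11 (SE) with 0.345. Foxo4 was lowest of the list at 72 h, at -1.001, and Nfya, a subunit of the CCAAT-binding factor, highest, at 0.76. Of 6 ubiquitin and ubiquitin-activating genes, 2 were higher at 6 h and 1 at 24 h. At 72 h, 2 were higher and 1 lower, and these counts stand beside the same shares of all genes. Rps27a, which encodes ubiquitin fused to a ribosomal protein and has many processed copies that can take its reads, was highest at 72 h, at 1.25. None of these 3 lists, nor the interferon list, had a gene called at 10 min or 1 h, and their values were not tested against those of the 48 genes.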

How the data were processed

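The authors deposited gene-level read counts and FPKM values for each library. Per the submitters' processing notes, reads were trimmed with cutadapt 1.18, aligned to mm10 with HISAT2 2.1.0 and counted with featureCounts; the annotation and strand setting are not given in the sources used here. Symbols and positions came from GENCODE M21 (GRCm38), which matched 30489 of 30583 IDs. The deposited counts were tested with edgeR 4.0.16 (filterByExpr, TMM, quasi-likelihood fit over all 18 libraries, 2-sided, Benjamini-Hochberg adjustment over 16311 genes, called at adjusted p under 0.05). The deposited FPKM, an alternative and the source of gene lengths, were tested with limma 3.58.1. In the 6 h group, 2 libraries hold FPKM that match each other's counts. The scripts were tested on simulated data. Values are given for every library for the catalytic, immunoproteasome, activator, inhibitor and chaperone genes, and in the other classes for the genes highest and lowest at 72 h and highest at 6 h; from each list of other genes the highest and lowest called at 72 h, with Tap1 and Nfe2l1, except for results that are not reported here. The genes and lists were chosen with earlier results of these data known. The labels give 3 mice per group and no litter, batch or day, so p-values measure the spread between these samples. Promoter sequences are RefSeq's. Alternatives were DESeq2 1.42.0, other scalings, filters and fits, a replicate block, and each library left out.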

Additional observations from a re-analysis of the deposited data

Results flagged for a closer look

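In 8 genes the difference from sham was called in opposite directions at 2 times, and the direct comparison of those 2 times was called too by edgeR. How many of all 16311 genes tested met the same description was not counted. Whether 8 of 48 is a large share was therefore not tested. From 6 h to 72 h the log2 difference was 1.60 for Psmb8 and 1.503 for Psmb9, and from 24 h to 72 h it was 1.24 for Psmb9. The other direction was taken by Psmd4, at -0.68 from 6 h to 72 h and -0.69 from 24 h to 72 h, and by Psme3, at -0.48 and -0.45. From 24 h to 72 h the regulatory subunits Psmc6, Psmd2, Psmd3 and Psmd7 moved by -0.49, -0.52, -0.74 and -0.61. With library totals 3 genes met this description, Psmb8, Psmb9 and Psmb10, and without sham replicate 2 or 3 also 3, Psmb9, Psmd3 and Psmd7. Without sham replicate 1 it was 4, Psmb9, Psmd3, Psmd4 and Psmd7. The calls at 24 h of Psmd2 and Psmc6 were lost in 11 and 3 of 18 fits with 1 library left out.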

How the results depend on the processing

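Calls against sham kept with their sign in all 28 settings, library totals included, were Psmb9 and Psmd11 at 6 h, Psma3, Psma5, Psmc4, Psmd3, Psmd7, Psmd11 and Psmd14 at 24 h, and Psmb8, Psmb9, Psmd5, Psmd8, Psmd10 and Psme4 at 72 h; of the 25 falls at 72 h the other 24 were lost or turned with library totals. With library totals, FPKM + 1 and FPKM + 0.1, in that order, the genes called higher were 1, 1 and 1 at 6 h, 34, 33 and 33 at 24 h and 32, 32 and 32 at 72 h, and those called lower 5, 5 and 5, then 0, 0 and 0, then 1, 1 and 1. The same 3 settings called 2, 2 and 3 between 1 h and 6 h, 39, 41 and 41 between 6 h and 24 h, 19, 19 and 19 between 24 h and 72 h, and 3, 3 and 3 in opposite directions at 2 times. Without a filter, 1 gene was called at 10 min, 1 between 10 min and 1 h, 1 higher at 6 h, 9 higher at 24 h, 5 between 6 h and 24 h and 3 in opposite directions. DESeq2 called 1 at 10 min, 1 between 10 min and 1 h and 5 higher at 6 h. Fits of only the 2 groups compared called 1 higher and 1 lower at 6 h, 9 higher and 2 lower at 24 h, 1 between 10 min and 1 h and 0 between 6 h and 24 h. Leaving out each library in turn gave 1 to 3 higher and 1 to 3 lower at 6 h, 1 to 4 lower at 24 h, 3 to 6 between 1 h and 6 h, 5 to 16 between 6 h and 24 h, 3 to 9 in opposite directions, and a change in immunoproteasome share of -3.88 to -3.03 points at 6 h. That share changed by -4.43 at 6 h and 10.4 at 72 h on counts not divided by length, and for Psmb8 and Psmb5 alone by -1.56 at 6 h, 0.588 at 24 h and 8.59 at 72 h, the value at 24 h being reversed. Reversed at 72 h were Psme3 (0.015), Psmb3 (0.032) and Psmb4 (0.042) on FPKM + 1 relative to the median of all genes, and Psme3 (0.008) scaled to the core; the cause was not tested. Same-numbered replicates did not deviate together (mean correlation 0.016, from -0.256 to 0.252), and 9 of 18 libraries were closest to their own number. A replicate block gave 3 higher and 3 lower at 6 h, 16 and 4 at 24 h, 7 and 25 at 72 h, 11 between 6 h and 24 h and 8 in opposite directions. Depth is low for Psmg3, at 41 to 167 counts per library, and Psmc3ip, at 37 to 184.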
